A study of Arabidopsis thaliana with 14 samples.

Results

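The transcriptome of the fve-4 mutant of Arabidopsis thaliana was set against that of the Col wild type in whole plants of 14 days, grown in long days. One side of the comparison is the single fve-4 library and the other the 3 Col libraries, together 4 of the 14 libraries of the series. The fve-4 allele carries a point mutation that brings an early stop into the reading frame of FVE, in the Col background. The other mutants of the series are hda6-6 (a point mutation at a splice site of HDA6), hda5-1 and hda9-1 with 3 libraries each, and the T-DNA insertion line fld-6 with 1 library. Each mutant is 1 allele, and no complemented line was sequenced. The authors gave each gene as RPKM, its reads scaled by the length of its exons and by the mapped reads of the library.

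FVE, also called MSI4, is a WD40-repeat protein that binds histones and works together with HDA6, a histone deacetylase, and with FLD, a relative of histone demethylases. It belongs to the autonomous pathway, which keeps the MADS-box repressor FLC low so that the plant can flower without a long cold period. When FLC stays high, the integrators FT and SOC1 stay low and flowering is late. FVE is also known from a screen for altered cold-responsive gene expression, where it bears the name ACG1, and it takes part in silencing of some transposons.

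FVE itself (AT2G19520, chr2:8455756-8459642, plus strand, protein-coding) had an RPKM of 0.227 in fve-4. The 10 libraries of the other mutants lay between 17.38 and 22.1, and Col was at 20.9, 21.5 and 22.3. The fve-4 library is thus the only one of the 14 with a low FVE level, 94.8 times below the Col mean. The log2 fold change was -6.05 (standard error 0.13, adjusted p = 6.26e-10 by limma). The low gene is thus the one that the label names. Whether the early stop accounts for this RNA level was not tested. Of the 11 other genes of the same complexes and families that were tested, none was called against Col. MSI5 (AT4G29730), a close relative of FVE that also acts on FLC, was at 1.59 in fve-4 and at 1.84, 1.56 and 1.55 in Col. MSI1 (AT5G58230), the relative that serves in the PRC2 and chromatin assembly complexes, was at 21.3 in fve-4 and at 14.5, 13.9 and 13.8 in Col, a log2 difference of 0.59 that did not reach 2-fold. HDA6 (AT5G63110) was at 11.5 in fve-4 and at 8.58, 10.01 and 9.24 in Col.

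Across the 23058 of 33602 genes with an RPKM above 0.1 in at least 1 of the 4 libraries, 963 genes were called higher in fve-4 than in Col (4.18%) and 919 were called lower (3.99%). A call required a Benjamini-Hochberg adjusted p under 0.05 in limma and at least a 2-fold change of RPKM + 0.1. With its 1 library fve-4 has no spread of its own, and the spread of the replicated genotypes was used for it. Over all tested genes the log2 fold changes had a median of 0.19. When the libraries were rescaled by median-of-ratios, this median was 0.01 and the calls became 491 higher and 1225 lower, so that the share of higher genes among the calls was 28.6% in place of 51.2%.

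Each mutant was set against the same Col libraries, so a gene at which Col itself is unusual can be called in each of them. A second contrast, fve-4 minus the mean of hda6-6, hda5-1, hda9-1 and fld-6, uses no Col library in the difference, only in the estimate of spread. It called 312 genes higher in fve-4 (1.35%) and 330 lower (1.43%). Here the rescaled libraries gave 168 higher and 463 lower (26.6% higher, in place of 48.6%), and the median difference was 0.14 as deposited. Of the genes called higher than Col, 220 were also called higher than the other mutants, 739 were not called, and 4 were called lower. Of the genes called lower than Col, 167 were also called lower than the other mutants, 752 were not called and 0 were called higher. At 509 of the genes called lower than Col, all 10 libraries of the other mutants also lay below the lowest Col library. At 310 of the genes called higher than Col, all 10 lay above the highest Col library. A gene is described below as set apart in fve-4 where it was called in the same direction in both contrasts and fve-4 lay outside the range of all 13 other libraries. There were 193 such genes on the high side (0.837%) and 153 on the low side (0.664%). Both contrasts and the range rest on the same single fve-4 library, so they are not separate pieces of evidence.

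The libraries were read to a like depth, with an estimated 17.9 M to 25.6 M mapped reads, and between 27.2 and 32.1% of genes were listed at 0 per library. Leaf genes were abundant in every library, and the photosynthesis list summed to an RPKM of 88180 in fve-4, to 86180 to 112100 in the other mutants and to 120700, 110300 and 128000 in Col. Of 11 tested root markers, none was called in either contrast, with a summed RPKM of 38.8 in fve-4 and of 36.6, 46.7 and 31.4 in Col. Of 8 flower markers, PI, a floral organ identity gene, was called higher in fve-4 (2.82, against 1.01, 1.14 and 1.22 in Col). Raising the pseudocount to 1 removed this call. The flower list had a median log2 fold change of -0.39, and 5 of the 8 lay below all Col libraries. Its summed RPKM was 7.06 in fve-4 and 5.88, 7.34 and 7.39 in Col. Of 10 tested seed markers, 3 were called higher than Col, all at a low level, but 3 of the 10 passed the filter through fve-4 alone. The list summed to 6.80 in fve-4 and to 2.89, 0.402 and 1.96 in Col. The seed storage protein gene CRU3 (AT4G28520) was at 1.69 in fve-4, at 0 to 0.0435 in the other mutants and at 0.425, 0.0257 and 0 in Col. The part of these few transcripts in other results was not tested.

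Of 7 genes of the FLC clade and SVP, FLC, MAF5 and MAF4 rose in fve-4 and none fell, with a median of 0.33 against 0.19 over all tested genes. FLC (AT5G10140, chr5:3173382-3179448, minus strand), the MADS-box repressor on which the autonomous pathway acts, was at 45.6 in fve-4, at 81.6 in fld-6, at 7.92 to 9.32 in hda5-1, at 2.28 to 3.41 in hda6-6 and at 1.82 to 2.42 in hda9-1. In Col it was at 5.06, 3.91 and 4.19, so that fve-4 lay above all Col libraries and only fld-6 was higher. FLC rose by 3.36 on the log2 scale against Col (standard error 0.23, adjusted p = 1.38e-05, limma) and by 2.48 against the other mutants (adjusted p = 0.000274, limma).

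MAF5 (AT5G65080), a relative of FLC in the MAF cluster of chromosome 5, was at 11.1 in fve-4, at 1.63, 1.94 and 5.88 in the other mutants (here and below the lowest, the median and the highest of their 10 libraries) and at 3.99, 3.96 and 3.64 in Col. It was the one clade member set apart in fve-4, with log2 differences of 1.49 from Col (adjusted p = 0.000279, limma) and 1.82 from the other mutants (adjusted p = 0.000313, limma). MAF4 (AT5G65070), its neighbour, was at 4.66 in fve-4, at 4.07, 4.72 and 5.40 in hda6-6, at 2.07 or below in hda5-1, hda9-1 and fld-6, and at 1.58, 1.26 and 1.46 in Col. Only fve-4 and hda6-6 were at this level. MAF4 had a log2 fold change of 1.64 against Col (adjusted p = 0.0220, limma), and without Col replicate 2 it was not called (1.56, adjusted p = 0.0538, limma). FLM, MAF2 and MAF3, the remaining members of the clade, were not called, with log2 fold changes of 0.34, 0.05 and 0.30. SVP (AT2G22540), a MADS-box repressor that acts with FLC, was at 35.3 in fve-4 and at 56.9, 65.3 and 64.6 in Col, a log2 difference of -0.81 that was short of 2-fold and was called only with the rescaled libraries.

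Of 17 floral integrators and activators, 5 fell and none rose, and the list had a median of -0.75 against 0.19 over all tested genes. SOC1 (AT2G45660), a MADS-box integrator repressed by FLC, was at 17.3 in fve-4, at 6.36, 23.5 and 58.6 in the other mutants and at 51.2, 51.4 and 60.3 in Col. It fell by 1.64 on the log2 scale (standard error 0.18, adjusted p = 0.000210, limma). FT (AT1G65480), which encodes the mobile flowering signal, was at 0.0501 in fve-4, at 0.0915, 0.550 and 2.75 in the other mutants and at 0.695, 0.865 and 1.34 in Col. The fve-4 value was the lowest of the 14, and FT fell by 2.79 (adjusted p = 0.0163, limma), but this level rests on few reads and FT was not called with a pseudocount of 1. SPL9 (AT2G42200), an activator that miR156 holds down in young plants, fell by 1.62 (0.628 in fve-4, against 2.12, 1.94 and 2.36 in Col) and was likewise not called with a pseudocount of 1, under which SOC1 was the 1 call left in the list. LFY and FUL, which act in the flower meristem, were the other members called, with -1.82 and -1.04. Neither was called without Col replicate 3 (-1.72 and -0.93, adjusted p = 0.0504 and 0.0520, limma), which left 3 of the list. None of the 17 was called against the other mutants.

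**Figure D1:**
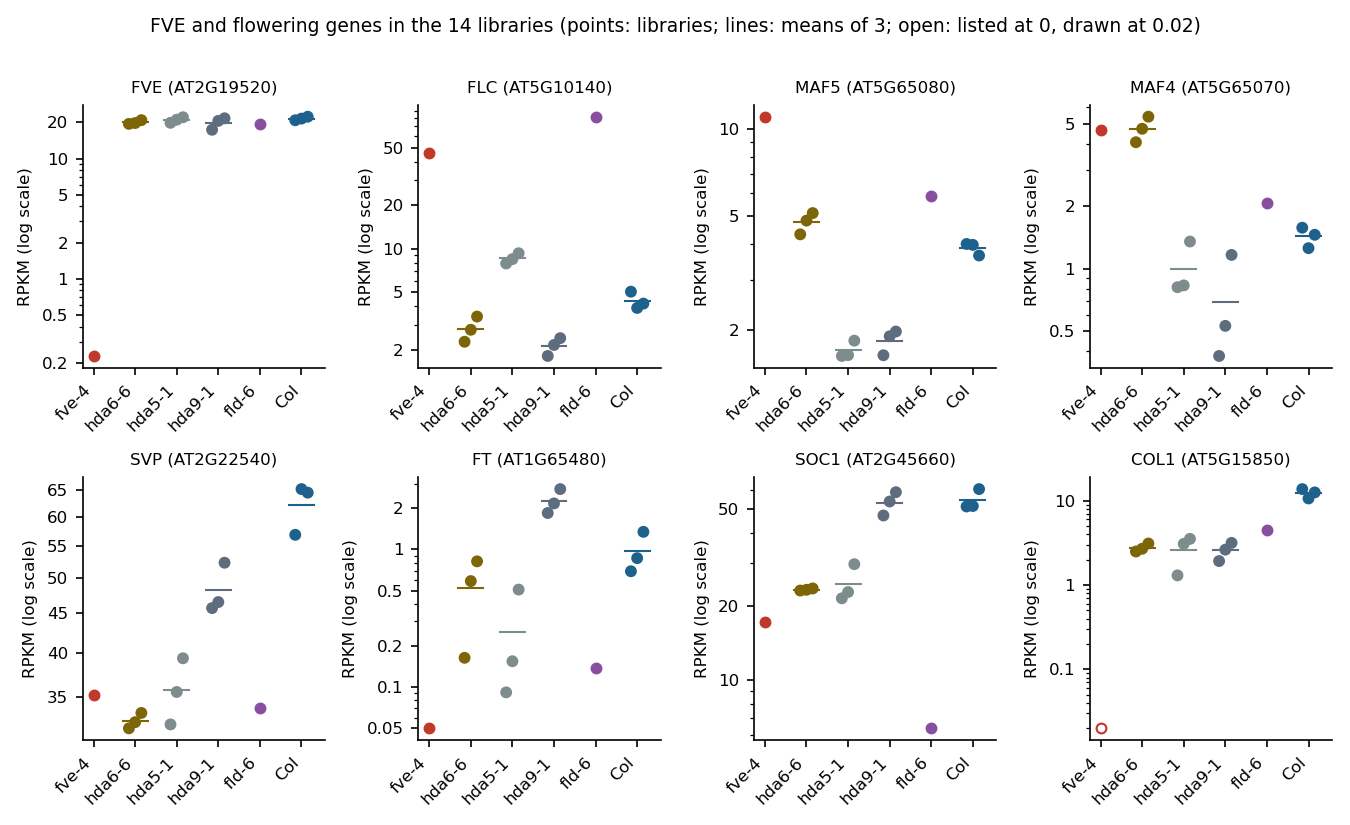
RPKM (log axis) of FVE and 7 flowering genes in the 14 libraries, with fve-4 at the left and Col at the right of each panel. Points are libraries, lines are means of 3, and the open point is COL1 listed at 0. FVE is low only in fve-4, FLC is high in fve-4 (45.6) and fld-6 (81.6), and MAF4 is at 4.07 to 5.40 in fve-4 and hda6-6.

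The other classes of FLC regulators gave no calls. None of 8 tested genes of the autonomous pathway, 13 activators of FLC or 8 genes of PRC2 and vernalization was called against Col or against the other mutants, and the medians of these lists were 0.19, 0.23 and 0.38. Among 9 other repressors of flowering, TEM2 (AT1G68840), a repressor of FT, was at 68.7 in fve-4, at 49.6, 66.4 and 119 in the other mutants and at 253, 271 and 250 in Col. TEM2 fell by 1.91 (adjusted p = 4.50e-05, limma). SNZ (AT2G39250), an AP2-type repressor, fell by 1.52 and was at 1.34 in fve-4, below all other libraries.

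Of 13 tested genes of the photoperiod pathway, 7 fell and none rose, with a median of -1.18, and 1 was lower than in the other mutants. COL1 (AT5G15850, chr5:5176091-5177897, minus strand), a B-box gene next to CO, was listed at 0 in fve-4, at 1.303, 2.89 and 4.55 in the other mutants and at 13.7, 10.6 and 12.6 in Col. It is the one gene of the pathway called lower in both contrasts (adjusted p = 8.41e-06 and 0.000210, limma). The adjoining gene CO (AT5G15840), the central activator of the pathway, was at 0.571 in fve-4 and at 0.323, 0.528 and 0.583 in Col and was not called. The clock-bound protein gene GI (AT1G22770), which helps to release CO expression, was at 15.6 in fve-4, at 16.3, 21.7 and 36.1 in the other mutants and at 44.7, 51.5 and 45.6 in Col, and fell by 1.59 (adjusted p = 0.00254, limma). CDF3 (AT3G47500), a DOF-type repressor of CO, was at 6.04 in fve-4, at 3.01, 4.13 and 7.11 in the other mutants and at 30.5, 26.1 and 38.9 in Col. For GI, CDF3, COL2, SPA1 and FKF1 all libraries of the other mutants were below all Col libraries as well, so that Col stands alone.

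Of 14 tested morning-phased clock genes, 5 fell and none rose, with a median of -0.60, and none was called against the other mutants. CCA1 (AT2G46830), a MYB repressor of the morning loop, was at 0.329 in fve-4, at 0.381, 0.759 and 1.799 in the other mutants and at 3.28, 2.92 and 3.53 in Col. It fell by 2.96 (standard error 0.37, adjusted p = 0.000477, limma). LNK1 (AT5G64170), a coactivator of evening genes, fell by 2.43 (4.81 in fve-4, against 24.9, 26.3 and 28.3 in Col). PRR9 (AT2G46790), the pseudo-response regulator expressed first in the day, was at 0.399 in fve-4, at 0.215, 0.365 and 0.741 in the other mutants and at 2.60, 3.04 and 3.22 in Col. It fell by 2.61 against Col (adjusted p = 0.00276, limma) and differed by -0.06 from the other mutants. LHY, the partner of CCA1, was at 0.384 in fve-4 and at 0.420, 0.686 and 0.369 in Col and was not called.

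Among the 9 evening-phased clock genes, 2 rose and 1 fell. PRR3 (AT5G60100), which protects the TOC1 protein, was at 17.9 in fve-4, at 5.50, 6.93 and 9.78 in the other mutants and at 7.31, 7.10 and 6.56 in Col. PRR3 was set apart in fve-4, with log2 differences of 1.34 from Col (standard error 0.14, adjusted p = 0.000141, limma) and 1.34 from the other mutants (adjusted p = 0.000613, limma). BOA (AT5G59570), a GARP factor that activates CCA1, was at 29.3 in fve-4, at 9.31, 21.3 and 30.3 in the other mutants and at 6.32, 5.10 and 4.56 in Col, and rose by 2.45 (adjusted p = 4.50e-05, limma). PRR5 fell by 1.58. TOC1, the evening repressor of CCA1, was at 49.4 in fve-4 and at 53.3, 55.5 and 44.1 in Col. Time of harvest sets the level of clock genes, the time for each library is not given in the sources used here, and it cannot be told apart from genotype.

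The PRR9 promoter is shown, as that of a morning-phased gene that fell, for the evening element AATATCT, a motif of evening-phased genes. The run, like each promoter shown, holds 250 bases before and 50 bases after the annotated start, in the direction of the gene, and capitals mark the motif on either strand.
PRR9, chr2:19232357-19232656, plus strand, TAIR10.1: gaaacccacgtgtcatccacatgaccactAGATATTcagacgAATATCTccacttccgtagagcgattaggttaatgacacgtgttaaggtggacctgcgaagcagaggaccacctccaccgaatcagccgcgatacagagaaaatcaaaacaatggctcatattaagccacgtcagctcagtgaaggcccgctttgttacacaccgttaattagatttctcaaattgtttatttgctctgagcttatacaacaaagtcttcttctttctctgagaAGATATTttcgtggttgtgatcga
The window holds 3 matches. The motif was found in 11.8% of all 21732 promoters of tested protein-coding genes, in 6 of the 14 morning-phased and in 6 of the 9 evening-phased genes.

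Early touch and wound response genes had the largest share of called members among the lists with at least 10 tested genes. Of 22 tested, 14 fell and 1 rose against Col, with a median of -2.13, and 4 were lower than in the other mutants (3 without Col replicate 1, 2 or 3, in each case without ZAT10). ORA47 (AT1G74930), an ERF that acts on jasmonate synthesis genes, was at 5.65 in fve-4, at 1.35, 4.74 and 11.9 in the other mutants and at 146, 204 and 133 in Col. ZAT10 (AT1G27730), a zinc finger repressor induced by many stresses, was at 6.11 in fve-4, at 10.3, 15.6 and 63.0 in the other mutants and at 178, 203 and 157 in Col. ERF5 (AT5G47230), an ERF of the defence and growth response, was at 9.57 in fve-4, at 7.48, 12.7 and 21.4 in the other mutants and at 110, 117 and 108 in Col. All Col libraries were far above all others at these genes, which fell by 4.79, 4.84 and 3.53 on the log2 scale in fve-4 (adjusted p = 7.06e-05, 9.46e-05 and 0.000248, limma). Such transcripts rise within minutes of handling, the handling of each library is not given in the sources used here, and it cannot be told apart from genotype.

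At TCH2 and ERF6 the fve-4 library was low against the other mutants too. TCH2 (AT5G37770), a calmodulin-like protein gene induced by touch, was at 23.8 in fve-4, at 29.9, 85.8 and 117 in the other mutants and at 89.3, 107 and 86.4 in Col. It differed by -1.97 from Col (standard error 0.22, adjusted p = 0.000225, limma) and by -1.37 from the other mutants (adjusted p = 0.00516, limma), and fve-4 was the lowest of the 14 libraries, with hda9-1 next at 29.9 to 37.8. ERF6 (AT4G17490), a paralog of ERF5, was at 19.9 in fve-4, at 28.3, 86.0 and 171 in the other mutants and at 99.7, 151 and 85.6 in Col, with differences of -2.45 and -1.53.

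TCH3 (AT2G41100), another calmodulin-like gene, went the other way against Col. It was at 261 in fve-4, at 187, 1310 and 2308 in the other mutants and at 123, 123 and 75.8 in Col. TCH3 was thus called higher than Col (1.32, adjusted p = 0.0114, limma) and lower than the other mutants (-1.54, adjusted p = 0.0105, limma), as were the expansin-like genes EXLA1 and EXLA2 and AT1G50040, a gene of unassigned function. TCH4, an XTH gene of the touch response, was at 183 in fve-4 and at 249, 278 and 127 in Col and was not called.

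The TCH2 promoter is shown because TCH2 was lowest in fve-4. It holds the rapid stress response element CGCGTT (in capitals), a motif bound by calmodulin-binding CAMTA factors, at 4 positions that form 2 overlapping pairs, each the palindrome read on both strands.
TCH2, chr5:14999570-14999869, minus strand, TAIR10.1: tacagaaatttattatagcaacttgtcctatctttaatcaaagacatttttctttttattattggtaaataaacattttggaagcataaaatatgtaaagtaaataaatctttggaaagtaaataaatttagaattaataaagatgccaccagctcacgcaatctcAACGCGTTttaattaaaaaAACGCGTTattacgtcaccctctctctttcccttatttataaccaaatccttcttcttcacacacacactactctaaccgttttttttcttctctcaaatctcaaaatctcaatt
The element was in 3.74% of the promoters of all tested protein-coding genes, in 2 of the 22 touch and wound genes and in 13 of the 150 promoters of genes set apart on the low side (8.67%).

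Of 24 genes of ethylene synthesis and signaling, 3 fell against Col (12.5%) and 3 were lower than in the other mutants. Of all tested genes, 3.99 and 1.43% were called lower in these contrasts. Without Col replicate 1, 2 or 3 both counts were 2, in each case without the ACC synthase gene ACS7. ACS6 (AT4G11280), an ACC synthase gene of the first step of ethylene synthesis, was at 4.57 in fve-4, at 5.99, 7.26 and 9.39 in the other mutants and at 46.9, 56.4 and 33.0 in Col, and fell by 3.25 (adjusted p = 6.32e-05, limma). ACS11, a further ACC synthase gene, was at 0.929 in fve-4, below all libraries of the other mutants (1.37 to 9.58), with a difference of -1.71 (adjusted p = 0.0159, limma). It was not called against Col.

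Of 20 tested cold-responsive genes, 6 fell and 1 rose against Col, with a median of -0.14, and RD29A was also lower than in the other mutants. CBF3 (AT4G25480), one of the AP2 factors that switch on the cold regulon, was at 0.108 in fve-4, at 0, 0.226 and 0.722 in the other mutants and at 4.43, 6.01 and 10.8 in Col. It fell by 5.01 on the log2 scale (adjusted p = 0.000116, limma), as CBF2 did by 3.15 (0.259 in fve-4, against 2.60, 2.49 and 4.56 in Col). The target genes did not move as one. RD29A (AT5G52310), a hydrophilic stress protein gene, was at 11.2 in fve-4, at 19.2, 36.3 and 107 in the other mutants and at 82.6, 99.0 and 128 in Col. It was set apart in fve-4, with differences of -3.17 from Col (standard error 0.31, adjusted p = 0.000122, limma) and -2.005 from the other mutants (adjusted p = 0.00495, limma).

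COR15A (AT2G42540), which encodes a chloroplast cryoprotectant, had an RPKM of 167 in fve-4 and of 168, 165 and 241 in Col. COR15B and COR47, further classical targets, had log2 differences of 0.19 and 0.16, and none of these genes was called. COR27 (AT5G42900), a repressor of cold tolerance with an evening peak, was at 166 in fve-4, at 72.2, 132 and 168 in the other mutants and at 67.0, 56.8 and 42.3 in Col, and rose by 1.61 (adjusted p = 0.00213, limma). The RD29A promoter is shown with the CBF box CCGAC, the site of CBF factors, in capitals.
RD29A, chr5:21240467-21240766, plus strand, TAIR10.1: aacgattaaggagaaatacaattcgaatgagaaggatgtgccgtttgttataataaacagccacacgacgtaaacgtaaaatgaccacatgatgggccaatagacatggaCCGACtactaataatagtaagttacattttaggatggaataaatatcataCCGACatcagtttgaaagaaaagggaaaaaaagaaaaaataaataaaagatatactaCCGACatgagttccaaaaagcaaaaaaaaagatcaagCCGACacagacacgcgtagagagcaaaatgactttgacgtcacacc
It holds 4 copies. The box was in 7 of the 20 cold genes and in 15.8% of all promoters, with 19.1% of those called higher than Col and 15.1% of those called lower.

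Of 12 tested genes of jasmonate synthesis and its markers, 5 were higher than in Col and 1 was lower, with a median of 0.82, and 5 of the 12 lay below all Col libraries. AOC2 (AT3G25770), an allene oxide cyclase gene, was at 563 in fve-4, at 134, 257 and 366 in the other mutants and at 116, 168 and 113 in Col, and rose by 2.11 (standard error 0.23, adjusted p = 0.000206, limma). AOS (AT5G42650), which encodes the preceding enzyme, was at 256 in fve-4, at 92.1, 135 and 225 in the other mutants and at 82.7, 103 and 87.5 in Col, and rose by 1.497 (adjusted p = 0.000518, limma). For both genes fve-4 was the highest of all 14 libraries. OPR3, LOX2 and AOC1, which encode further steps, rose by 1.58, 1.54 and 2.78. Against the other mutants the list had a median of -0.05, with LOX4 and VSP2 lower and AOC1 and AOC2 higher, but neither was called with the rescaled libraries, nor AOC1 without Col replicate 1 (1.11). VSP2 was not called in this contrast without Col replicate 1, 2 or 3. VSP2, a storage protein gene and marker of the response, was at 92.7 in fve-4 and at 278, 339 and 265 in Col. Its difference of -1.66 (adjusted p = 0.0358, limma) was not called without any 1 of the Col replicates 1, 2 and 3 (-1.69, -1.55 and -1.73). JAZ1, a repressor of the response, is among the touch and wound genes that fell.

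Of 13 tested heat shock genes, 5 rose and none fell against Col, and the median was 2.13. HSP70 (AT3G12580), a cytosolic chaperone gene, was at 109 in fve-4, at 20.9, 55.1 and 203 in the other mutants and at 21.7, 18.6 and 17.9 in Col, and rose by 2.48 (adjusted p = 0.0115, limma). MBF1C (AT3G24500), a coactivator of thermotolerance, was at 59.0 in fve-4, at 17.0, 36.5 and 95.4 in the other mutants and at 18.9, 15.6 and 15.9 in Col, and rose by 1.81 (adjusted p = 0.000734, limma). The hda5-1 libraries reached 203 at HSP70 and were at 59.0 to 95.4 at MBF1C, and none of the list was called against the other mutants. Without Col replicate 3 the count was 3. Of 16 salicylic acid and defence genes, PAD4 and ICS1 fell, by 1.44 and 1.08, and without Col replicate 2 ICS1 was not called (-0.96). PAD4 (AT3G52430), a lipase-like regulator of defence, was at 3.77 in fve-4 and at 9.75, 11.6 and 10.01 in Col.

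**Figure D2:**
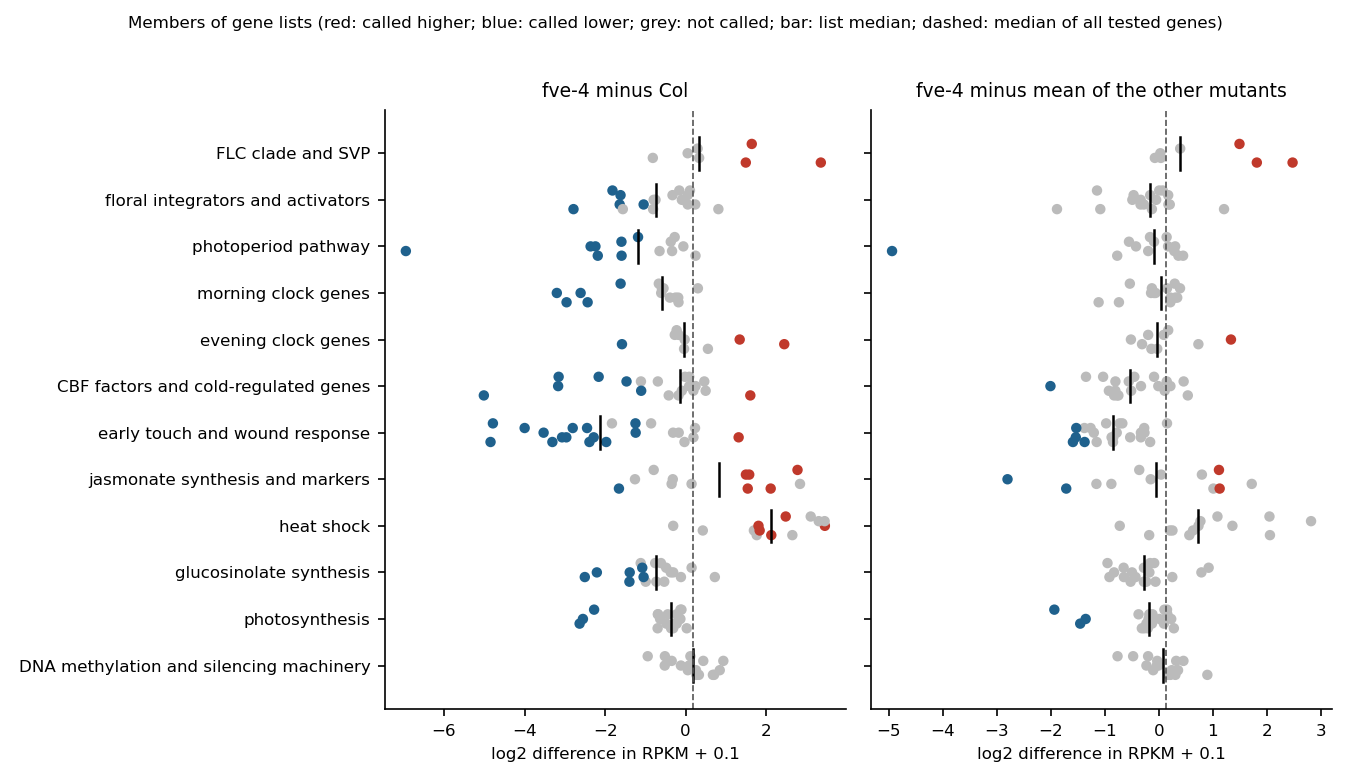
Log2 differences in RPKM + 0.1 of the tested members of 12 gene lists, fve-4 minus Col (left) and fve-4 minus the mean of the other mutants (right). Red and blue points were called higher and lower, grey points were not called, bars are list medians and dashed lines the medians of all tested genes (0.19 and 0.14). Touch and wound genes have 14 blue points at the left and 4 at the right.

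Of 19 tested genes of photosynthesis, 3 of the photosystem II antenna fell against Col and the same 3, LHCB1.1, LHCB2.1 and LHCB2.2, were lower than in the other mutants, and the median was -0.36. Of the 19, 17 lay below all Col libraries and 0 above. LHCB2.1 (AT2G05100), which encodes a mobile antenna protein of photosystem II, was at 594 in fve-4, at 896, 1571 and 2316 in the other mutants and at 3717, 3113 and 4319 in Col. It differed by -2.63 from Col (standard error 0.26, adjusted p = 0.000125, limma) and by -1.45 from the other mutants (adjusted p = 0.00698, limma). Its close relative LHCB2.2 (76.6% identical bases over the aligned gene models, with a longest identical run of 152 bases) could share some reads with it. The sum of the pair was 1094 in fve-4, 1646 to 4319 in the other mutants and 5606 to 7835 in Col. The fve-4 sum was the lowest of the 14.

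LHCB1.1 (AT1G29920), a gene of the major antenna protein, was at 934 in fve-4, at 2858, 3394 and 5709 in the other mutants and at 3894, 4211 and 5610 in Col. Its sum with the adjacent relative AT1G29910 (67.1% identical, longest run 116 bases) was 4774 in fve-4, 8992 to 14270 in the other mutants and 11260 to 15510 in Col. RBCS1A, a gene for the small subunit of Rubisco, was below all Col libraries but short of 2-fold. It was at 6161 in fve-4 and at 6903, 8138 and 7924 in Col. PnsL4 (AT4G39710, chr4:18426492-18428578, minus strand), a gene for a lumenal subunit of the chloroplast NDH complex, was set apart. Its RPKM was 3.02 in fve-4, against 36.8, 49.5 and 61.97 in the other mutants and at 63.4, 51.9 and 57.6 in Col, so that fve-4 lay 19.1 times below the Col mean. Its difference was -4.21 from Col (standard error 0.17, adjusted p = 2.38e-07, limma) and -3.997 from the other mutants (adjusted p = 1.63e-07, limma).

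Of 18 tested glucosinolate genes, 6 fell against Col and none rose, with a median of -0.74. MYB29 (AT5G07690), a regulator of the aliphatic branch, was at 1.07 in fve-4, at 1.49, 1.79 and 3.11 in the other mutants and at 6.33, 5.83 and 7.66 in Col, and fell by 2.504 (adjusted p = 6.07e-05, limma). CYP79F1 (AT1G16410), which makes the aldoximes of this branch, fell by 2.21 (32.0 in fve-4, against 139, 129 and 180 in Col). No member was called against the other mutants. Of 14 anthocyanin and flavonol genes, 3 fell. The activator gene PAP1 (AT1G56650) was at 0.234 in fve-4 and at 1.95, 2.53 and 1.51 in Col, the repressor gene MYBL2 (AT1G71030) at 38.4 in fve-4 and at 156, 136 and 153 in Col. FLS1 (AT5G08640), the flavonol synthase gene, was set apart, at 2.04 in fve-4, at 3.85, 4.99 and 16.4 in the other mutants and at 5.28, 7.74 and 3.88 in Col.

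Several loci that are nearly silent in Col were among the highest ratios. Of the 10 called genes with the highest log2 fold changes and a mean RPKM of at least 2, AT2G01422, AT5G38005, AT4G04223 and AT1G67105 are annotated as non-coding RNA genes and SADHU3-2, named for a retroelement family, as a pseudogene. AT3G28899, AT3G29633 and AT4G36791 are annotated as uncharacterized proteins, and XTH15 and FLC complete the set. AT2G01422 (chr2:183940-184734, plus strand) was at 129 in fve-4, at 77.9, 84.9 and 91.6 in hda6-6 and at 2.03 or below in hda5-1, hda9-1 and fld-6. In Col it was at 0.0534, 0.0582 and 0.868. It was thus high in fve-4 and hda6-6 and in no other genotype, with fve-4 on top, and differed by 8.82 from Col (standard error 1.21, adjusted p = 0.000734, limma) and by 6.05 from the mean of the other mutants (adjusted p = 0.0105, limma). With a pseudocount of 0.01 the difference from the other mutants was not called.

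AT5G38005 was at 15.5 in fve-4, at 12.8, 14.4 and 14.6 in hda6-6, at 1.94 or below in hda5-1, hda9-1 and fld-6, and at 0.633, 0.262 and 0.818 in Col. AT4G04223 was at 53.7 in fve-4, at 47.4, 49.9 and 59.1 in hda6-6, at 4.17 or below in hda5-1, hda9-1 and fld-6, and at 4.77, 4.23 and 3.66 in Col. Both were raised to a like level in fve-4 and hda6-6, with log2 fold changes against Col of 4.64 and 3.65 in fve-4 (adjusted p = 0.000236 and 2.25e-06, limma). At other loci fve-4 reached only part of the hda6-6 level. AT3G28899 was at 33.3 in fve-4, at 66.7, 66.9 and 85.1 in hda6-6, at 0.834 or below in the remaining mutants and at 0, 0.489 and 1.46 in Col. AT3G29633 was at 11.6 in fve-4, at 35.4, 45.1 and 52.6 in hda6-6, at 0.583 or below in the remaining mutants and at 0, 0 and 0.479 in Col. AT1G67105 was at 35.4 in fve-4, at 395, 404 and 518 in hda6-6, at 20.6, 26.2 and 26.3 in hda9-1 and at 1.78, 2.47 and 2.81 in Col. The hda6-6 and fve-4 comparisons share the Col libraries.

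**Figure D3:**
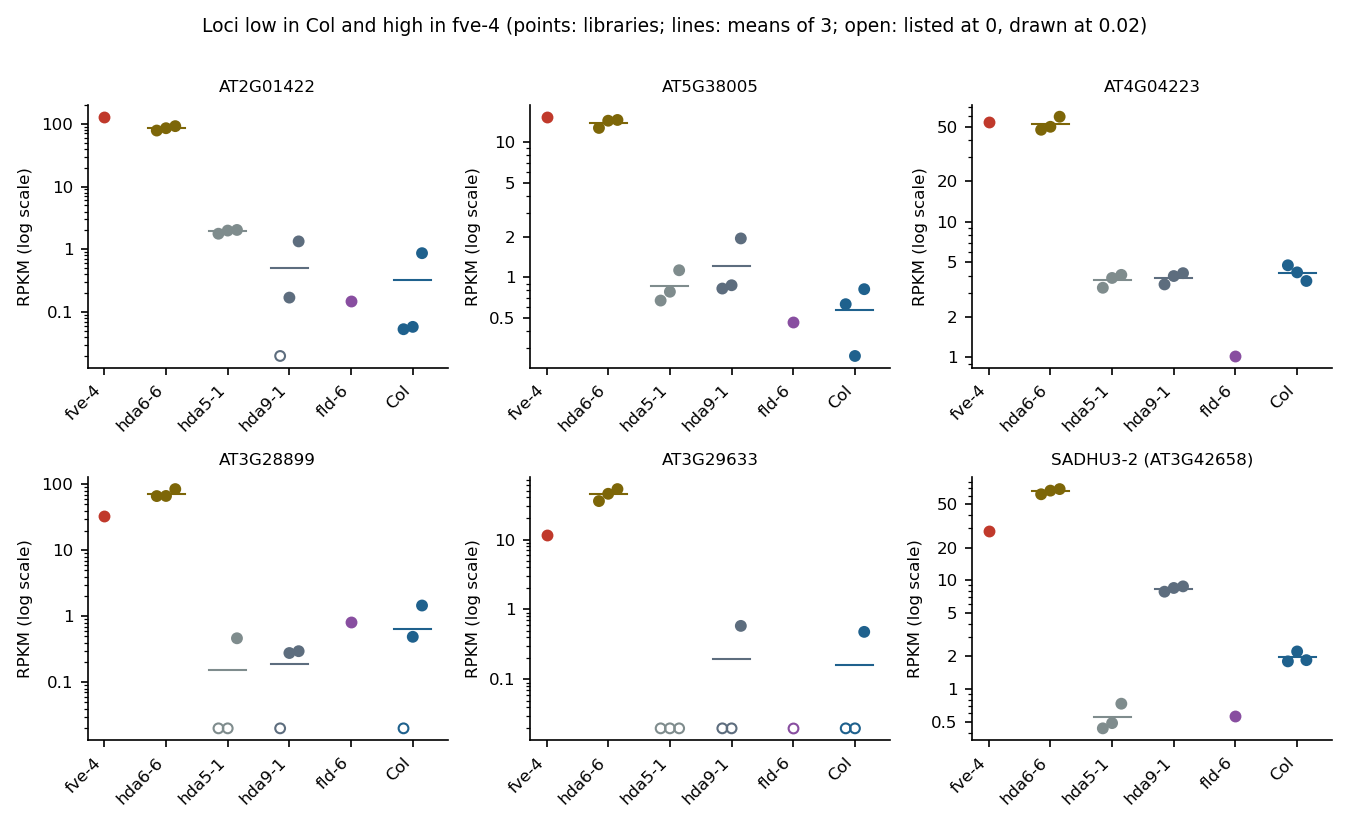
RPKM (log axis) of 6 loci that are low in Col, in the 14 libraries, with fve-4 at the left and Col at the right. Points are libraries, lines are means of 3 and open points are values listed at 0. AT2G01422, AT5G38005 and AT4G04223 reach the hda6-6 level in fve-4, and AT3G28899 (33.3), AT3G29633 (11.6) and SADHU3-2 (28.2) lie below it.

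Most transposable element genes stayed silent. Of 3911 loci annotated as pseudogenes, most of which are transposable element genes in this genome, 198 were above the filter, 23 of them through fve-4 alone. Among these 198, 31 were called higher (15.7%) and 5 lower (2.53%) than in Col, at mostly low levels. Of all tested genes, 4.18 and 3.99% were called. With a pseudocount of 1 the counts for these loci were 7 and 1. SADHU3-2 (AT3G42658) was at 28.2 in fve-4, at 61.7, 66.6 and 68.8 in hda6-6, at 7.86 to 8.80 in hda9-1, at 0.736 or below in hda5-1 and fld-6, and at 1.801, 2.22 and 1.85 in Col, and rose by 3.79 (standard error 0.22, adjusted p = 6.18e-06, limma). AT2G13431 was at 2.64 in fve-4, at 22.2, 22.2 and 26.3 in hda6-6 and at 0.0707, 0.0771 and 0.0383 in Col, with a log2 fold change of 4.09 (adjusted p = 0.00145, limma). SDC (AT2G17690), an F-box gene kept silent by DNA methylation, was high in hda6-6 but not in fve-4. It was at 0.0916 in fve-4, at 5.0, 5.61 and 7.45 in hda6-6 and at 0.967, 0.857 and 0.557 in Col, and its call as lower than Col (-2.19) was lost with a pseudocount of 1. PHE1 (AT1G65330), an imprinted MADS-box gene, was at 2.24 in fve-4, at 0.942, 1.95 and 10.4 in the other mutants and at 0.455, 0.257 and 0.602 in Col and rose by 2.18 (adjusted p = 0.000927, limma). None of the 16 genes of the DNA methylation and silencing machinery was called in either contrast, and their median was 0.19. With the rescaled libraries, or without Col replicate 1, 1 of them was called lower than Col.

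Of 286 tested non-coding RNA genes, 22 were higher (7.69%) and 4 lower (1.4%) than in Col, beside 4.18 and 3.99% of all tested genes. Without Col replicate 3 there were 2 lower, and 17 of the 286 were above the filter through fve-4 alone. Among 77 tested tRNA genes 9 were called higher (11.7%), but 16 of the 77 passed through fve-4 alone, all at low values. With a pseudocount of 1 the count was 1. Among 290 cytosolic ribosomal protein genes 13 were higher (4.48%, near the 4.18% of all tested genes) and none lower, with a median of 0.44 against 0.19 for all genes. This count was 8 without Col replicate 3 and 2 with rescaled libraries. AT5G39850, annotated as a ribosomal protein S4 gene, was set apart at 35.5 in fve-4, at 7.85, 9.32 and 17.62 in the other mutants and at 17.1, 15.9 and 12.7 in Col. Of the 127 chloroplast and 126 mitochondrial genes tested, 2 and 0 were called higher and 1 each was called lower. Without Col replicate 1, 2 or 3 the higher chloroplast genes were 1 and the lower mitochondrial genes 0, and without replicate 1 or 3 the lower chloroplast genes were 0.

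Besides FVE and COL1, 1 locus was switched off in fve-4 by the rule used, an RPKM under 5% of the lowest of the 13 other libraries where that lowest is at least 1. No locus was switched on by the matching rule, an RPKM of at least 1 and over 20 times the highest of the 13 others. AT1G18010 (chr1:6199690-6201759, plus strand), a major facilitator superfamily gene, was listed at 0 in fve-4, at 13.9, 18.0 and 23.4 in the other mutants and at 13.8, 17.1 and 16.1 in Col. It lies in an inverted repeat of 5689 bases per arm that are identical in the reference genome, chr1:6191597-6197285 and chr1:6198742-6204430. The other arm holds AT1G18000, and 1912 bases are identical between the gene models, which is 92.4% of AT1G18010 and 99.7% of AT1G18000. Reads of these genes can therefore not be told apart by sequence, and their separate values are uncertain.

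AT1G18000 was at 27.1 in fve-4, above its level in any other library. The ratio of AT1G18010 to AT1G18000 was 0 in fve-4 and between 1.05 and 1.11 in the 13 other libraries, while the sum of the pair was 27.1 in fve-4, 27.1 to 45.6 in the other mutants and 26.9 to 33.4 in Col. The summed level in fve-4 thus lay within the range of Col. A second pair in the same repeat, AT1G18020 and AT1G17990, kept a ratio of 1.18 in fve-4, within the 1.07 to 1.24 of the other libraries.

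**Figure D4:**
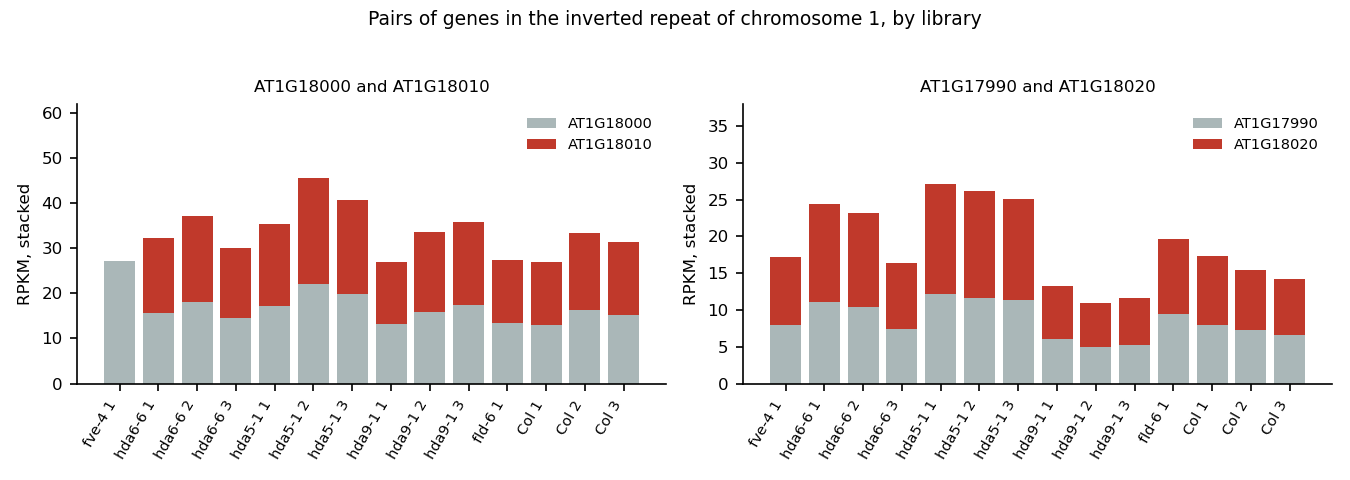
Stacked RPKM of AT1G18000 and AT1G18010 (left) and of AT1G17990 and AT1G18020 (right) in the 14 libraries, with fve-4 at the left and Col at the right of each panel. In fve-4 the left pair is made up of AT1G18000 alone (27.1), and the right pair keeps both genes.

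Genes near FVE were examined because linked changes can come with an allele. Of 45 tested genes within 100 kb on either side, 6 were higher and 2 lower than in Col, beside 4.18 and 3.99% of all tested genes, with a median of 0.37 against 0.19 over all. DWA1 (AT2G19430, chr2:8415046-8417994, plus strand), 37762 bases from FVE, encodes a substrate receptor of CUL4 ubiquitin ligases that acts in abscisic acid signaling. It was at 0.403 in fve-4, at 6.33, 6.97 and 8.36 in the other mutants and at 7.49, 6.62 and 8.45 in Col, 18.7 times below the Col mean. DWA1 differed by -3.91 from Col (standard error 0.18, adjusted p = 6.70e-07, limma) and by -3.83 from the other mutants (adjusted p = 3.27e-07, limma). The other lower gene, AT2G19650, was at 0.474 in fve-4, at 0.355 to 0.787 in the other mutants and at 1.91 to 2.27 in Col. Whether DWA1 carries a change of its own in this line was not tested.

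Further genes were set apart on the high side. XTH25 (AT5G57550), an endotransglucosylase gene of the cell wall, was at 49.0 in fve-4, at 5.39, 9.53 and 22.4 in the other mutants and at 5.89, 5.85 and 6.16 in Col. It rose by 3.02 against Col (standard error 0.28, adjusted p = 8.50e-05, limma) and by 2.17 against the other mutants (adjusted p = 0.00187, limma). SEN1 (AT4G35770), a gene induced by darkness and senescence, was at 1075 in fve-4, at 190, 275 and 463 in the other mutants and at 323, 232 and 189 in Col, with differences of 2.15 and 1.84 (adjusted p = 0.00422 and 0.0158, limma). THA1 (AT1G08630), which encodes threonine aldolase, was at 34.95 in fve-4, at 3.88, 8.98 and 13.5 in the other mutants and at 5.29, 4.84 and 3.28 in Col. CML41 (AT3G50770), a calmodulin-like gene, was at 37.3 in fve-4, at 6.51, 8.84 and 14.8 in the other mutants and at 13.1, 14.0 and 7.54 in Col. At each of these 4 genes the fve-4 value was at least 2 times the highest of the 13 other libraries.

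On the low side, DIC2 (AT4G24570), a mitochondrial dicarboxylate carrier gene, was at 2.23 in fve-4, at 5.11, 11.0 and 48.0 in the other mutants and at 61.6, 89.0 and 75.6 in Col. Here the other mutants were below Col too, and fve-4 was below them all (-5.004 from Col and -2.26 from the other mutants, adjusted p = 7.06e-05 and 0.0105, limma). AT5G19240, a GPI-anchored protein gene, was at 9.51 in fve-4, at 17.45, 77.9 and 225 in the other mutants and at 43.0, 56.4 and 29.9 in Col. AT1G05675, a glycosyltransferase gene, was at 0.145 in fve-4, at 0.498, 4.91 and 11.9 in the other mutants and at 2.21, 3.00 and 1.18 in Col, with differences of -3.09 and -3.98.

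Several of the lowest ratios against Col were not called against the other mutants. AT2G15020, a gene without an assigned function, was at 0.156 in fve-4, at 0.175, 0.278 and 0.431 in the other mutants and at 8.16, 5.88 and 13.2 in Col. AT5G20260, an exostosin family gene, was at 0.0933 in fve-4, at 0.0610, 0.137 and 0.258 in the other mutants and at 7.30, 8.87 and 3.74 in Col. AT4G08555 was at 5.81 in fve-4, at 6.17, 13.4 and 21.0 in the other mutants and at 185, 217 and 173 in Col. At all 3 the 11 mutant libraries lay together and far below the 3 Col libraries, and the differences from the other mutants were -0.62, -0.42 and -1.16 (standard errors 0.37, 0.43 and 0.34; adjusted p = 0.306, 0.567 and 0.0527, limma).

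Cell wall genes moved in both directions. Of 29 XTH genes, which rejoin xyloglucan chains, 8 rose (27.6%) and 2 fell (6.9%) against Col, beside 4.18 and 3.99% of all tested genes. With the rescaled libraries 6 XTH genes rose and 2 fell. XTH15 (AT4G14130) was at 95.3 in fve-4, at 84.0, 84.7 and 103 in hda6-6, at 7.62 to 48.8 in the remaining mutants and at 8.49, 6.86 and 7.94 in Col, and rose by 3.61 (adjusted p = 4.50e-05, limma). XTH16 rose by 1.97 and was at 69.9 in fve-4, at 46.3, 74.0 and 133 in the other mutants and at 17.56, 17.3 and 18.6 in Col. Of 27 expansin genes, which loosen the wall, 3 rose (11.1%) and 5 fell (18.5%), and with the rescaled libraries 2 rose and 6 fell. EXPA8 (AT2G40610) was at 7.79 in fve-4, at 3.77, 5.14 and 22.5 in the other mutants and at 49.7, 60.8 and 70.6 in Col, and fell by 2.92 (adjusted p = 3.61e-05, limma). EXLA2 (AT4G38400) was at 7.91 in fve-4, at 7.35, 29.7 and 78.5 in the other mutants and at 1.84, 2.18 and 2.04 in Col. Of 16 auxin-responsive genes, IAA3 rose (1.26), of 9 tested gibberellin oxidase genes none was called against Col, and of 7 tested PIF and shade genes HFR1, a bHLH factor of light signaling, fell (2.91 in fve-4, against 12.0, 12.0 and 13.2 in Col). The rescaled libraries gave 3 lower genes in this list and 2 among the auxin genes.

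The promoters of the called genes differed most in the site II box TGGGCC, an element of ribosomal and organelle protein genes. It was in 27.7% of 864 promoters of genes called higher than Col, in 6.82% of 895 promoters of genes called lower and in 17.8% of all. Of the genes set apart, 37.1% of 151 on the high side and 5.33% of 150 on the low side carried it, beside 56.6% of the ribosomal protein genes. The telo box AAACCCT, a motif that often goes with it, was in 11.2% of the genes called higher, 4.58% of those called lower and 9.31% of all. The evening element was in 107 of the 864 promoters of genes called higher, in 156 of the 895 of genes called lower and in 11.8% of all, the G-box CACGTG, bound by bHLH and bZIP factors, in 8.91, 12.0 and 8.64% of the same sets, and the GCC box GCCGCC, bound by ERF factors, in 4.75, 2.35 and 2.60%. Motifs were counted on either strand, and a match is a description of the letters in the window. All these sets were called with the RPKM as deposited. Rescaling by median-of-ratios changed the genes called higher than Col from 963 to 491, and motif shares are not given for the rescaled calls. The SEN1 promoter is shown as a gene set apart on the high side with the site II box in capitals.
SEN1, chr4:16944628-16944927, plus strand, TAIR10.1: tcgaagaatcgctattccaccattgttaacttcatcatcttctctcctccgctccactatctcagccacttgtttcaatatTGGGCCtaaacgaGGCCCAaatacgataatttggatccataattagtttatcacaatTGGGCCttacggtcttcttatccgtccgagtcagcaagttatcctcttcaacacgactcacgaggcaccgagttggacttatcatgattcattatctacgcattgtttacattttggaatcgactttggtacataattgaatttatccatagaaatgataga
It holds 3 matches, of which 1 is on the other strand.

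**Figure D5:**
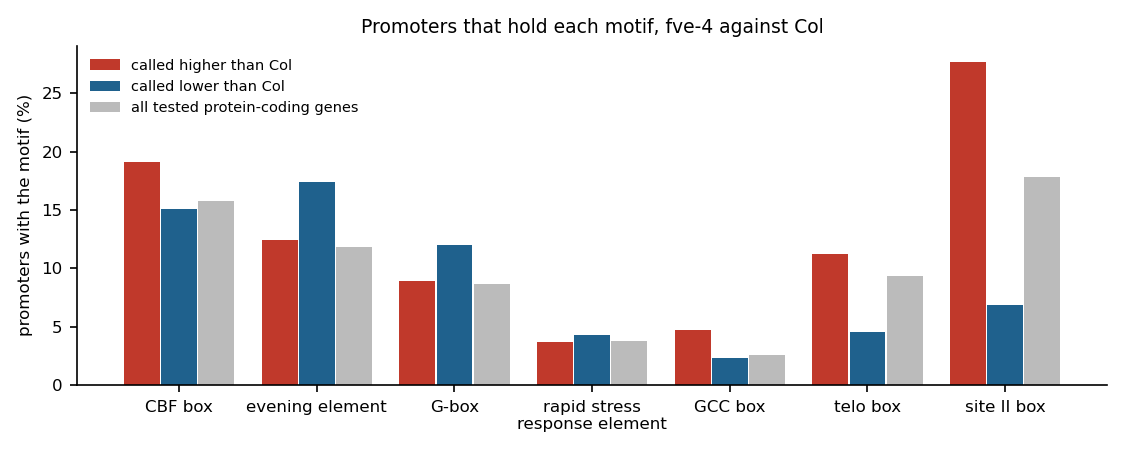
Percent of promoters (250 bases before to 50 after the start) that hold each of 7 motifs on either strand, for genes called higher than Col, genes called lower and all tested protein-coding genes. The site II box shows the widest gap, 27.7% against 6.82%. Calls are those with the RPKM as deposited.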

How the data were processed

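RNA of 14-day-old plants was sequenced in 14 libraries. Per the submitters' notes, the authors called bases with CASAVA 1.8, mapped reads to TAIR10 with Bowtie2 (no version given) and computed the deposited RPKM values with RackJ. No read counts were used, and the depth of a library was inferred from the smallest steps of its RPKM values. Only 20.3 to 31.4% of low values per library came out as whole reads (within 0.02), so no count test was run. Groups came from the genotype labels. The study's methods call the Col and hda6-6 libraries biological repeats. For hda5-1 and hda9-1 nothing says that libraries came from separate plantings, so their spread may be technical, and p-values cover the spread of these samples alone.

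Values were taken as log2(RPKM + 0.1), which understates changes of low genes, and tested in limma 3.58.1 (R 4.3.3, eBayes with trend) over all 14 libraries with a genotype term and nothing else (8 residual degrees of freedom, 3.36 prior), and p-values adjusted by Benjamini-Hochberg over the 23058 tested genes. On simulated data for fve-4 against Col, 181 of 200 planted changes were recovered with 7 false calls, and 0 calls were made with nothing planted. The simulated noise was normal and independent between libraries, and fve-4 was given the same spread as the others. Changes were planted only in genes above a set level in Col. The simulation therefore cannot show how the real fve-4 library varies or how low genes fare. Tables and plots were made in Python 3.11.15 (pandas 2.3.3, numpy 2.4.6; plots with matplotlib 3.10.9).

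Of the 33602 gene IDs, 32835 were found by locus tag in the RefSeq annotation of TAIR10.1, from which coordinates, gene classes and promoter sequences were taken. The members and gene lists were chosen with earlier results of these data known. Named genes were the mutated genes and relatives, the 10 highest and 10 lowest fold changes against Col among called genes with a mean RPKM of at least 2 over the 4 libraries, the 10 highest and 10 lowest differences from the other mutants among genes set apart, loci switched off or on, and leading members of each list. The genes set apart that were ranked in this way had a mean RPKM of at least 2 over the 14 libraries. AT1G50040, EXLA1, AT2G19650, JAZ1 and FKF1 were named for counts given beside them, with their values known. Alternatives covered the pseudocount, the filter, the scaling, the estimate of spread, the samples in the fit, the replicate block and each replicate left out.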

Additional observations from a re-analysis of the deposited data

Results flagged for a closer look

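The 20 genes listed here have the largest differences at each end among genes set apart with a mean RPKM of at least 2. They are a preset selection, since 193 genes were set apart on the high side and 153 on the low side. At each, fve-4 differed from the mean of hda6-6, hda5-1, hda9-1 and fld-6 in the limma contrast whose difference uses no Col library. Each was called in the same direction against Col, with fve-4 outside all 13 other libraries. The log2 difference from the other mutants was -7.41 at AT1G18010, -5.95 at FVE, -4.94 at COL1, -3.997 at PnsL4, -3.98 at AT1G05675, -3.83 at DWA1, -3.14 at AT2G24600, -2.94 at AT5G19240, -2.82 at PP2-B13 and -2.74 at NIMIN-2. It was 6.05 at AT2G01422, 3.16 at AT5G38005, 2.17 at XTH25, 2.11 at AT5G58570, 2.098 at CML41, 2.02 at THA1, 2.00 at AT1G52270, 1.84 at SEN1, 1.82 at MAF5 and 1.66 at AT5G39850. AT2G01422 and AT5G38005 are not particular to fve-4, since hda6-6 was high at both. Their differences are from a mean that also holds hda5-1, hda9-1 and fld-6, which were low there. The value at AT1G18010 rests on a pair of genes that reads cannot tell apart, and those at AT1G18010 and COL1 depend on the pseudocount, since both are listed at 0 in fve-4. Against Col, AT2G24600, PP2-B13 and NIMIN-2 were not called without Col replicate 1 (-1.10, -2.75 and -1.33) or without Col replicate 2 (-0.85, -2.26 and -0.97), and AT1G52270 without either (1.70 and 1.74). Against the other mutants, PP2-B13 was not called without any 1 of the Col replicates (adjusted p = 0.0681, 0.0510 and 0.0540, limma).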

How the results depend on the processing

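Against Col, the genes called higher and lower numbered 475 and 606 with a pseudocount of 1, and 609 and 604 with Col and fve-4 alone in the fit. With the adjusted p and no fold threshold they numbered 3673 and 1568, and with a 2-fold ratio to the Col mean and no test 1857 and 1850. The genes called higher were 491 with median-of-ratios and 482 with trimmed-mean scaling, and the genes 2-fold below all 3 Col libraries, with no test, were 1538. Against the other mutants, 120 were higher and 187 lower with a pseudocount of 1, 1693 and 633 with no fold threshold, and 195 were higher at a mean RPKM of at least 1, 168 with median-of-ratios and 164 with trimmed-mean scaling. The genes set apart were 77 higher and 67 lower with a pseudocount of 1. With median-of-ratios scaling they were 99 higher and 227 lower, and with trimmed-mean scaling 96 and 229. The cause was not tested. Leaving out 1 replicate gave 772 to 987 higher and 780 to 948 lower than Col, and 252 to 335 and 264 to 368 against the other mutants. Leaving out 1 Col replicate gave 178 to 188 and 118 to 139 set apart, and over the fixed lists 21 to 26 members were higher and 57 to 60 lower than Col, and 10 to 11 and 16 against the other mutants.

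Of 211 called differences of named genes, 118 were called under every alternative that tested them and 93 were lost under at least 1. With RPKM above 0.1 required in at least 3 of the 14 libraries, 186 of the 211 were tested. At a mean RPKM of at least 1, 166 were tested. The difference of AT5G27345 from the other mutants changed sign with a pseudocount of 1 (-0.014, in place of 1.195). The labels do not say that replicate numbers mark a shared batch. Same-numbered libraries correlated between 0.13 and 0.30 in their deviations from the group means for number 1, the number fve-4 carries, but between -0.09 and 0.19 for number 2 and between -0.09 and 0.12 for number 3, so the numbers were not taken to pair the samples. Of the 12 numbered libraries of Col, hda6-6, hda5-1 and hda9-1, 6 correlated best with a library of their own number. With the number as a replicate block, 751 genes were higher and 828 lower than Col, and 251 and 321 against the other mutants, with 8 heat shock and 2 ribosomal protein genes higher than Col in place of 5 and 13. The single fve-4 library and few reads at low RPKM limit all values.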
